A study of Papio anubis with 6 samples.

Results

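The GATA factors and the proteins that assemble with them form the core transcriptional machinery of red cell precursors. The 9 genes described here were chosen by name: GATA1, GATA2, ZFPM1, TAL1, LMO2, LDB1, LYL1, TCF3 and NFE2. All 9 were found among the 39023 genes that each of the 2 deposited tables lists. The tables come from proerythroblasts (CD105+CD34-CD117+bRBC+ cells sorted from baboon bone marrow, where bRBC is a red cell surface antigen of the baboon). Samples came from 2 untreated control baboons, from the same 2 animals after RN-1 at 0.25 mg/kg/d over 3 d (short-term), and from 2 other animals given RN-1 at the same daily dose 5 d a week over a period longer than 265 d (long-term). RN-1 is an inhibitor of the histone H3 demethylase LSD1, the product of KDM1A. In the long-term samples treatment and animal change together and cannot be told apart.

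GATA1 and GATA2 are zinc finger proteins that bind the same DNA motif. GATA2 acts in stem and early progenitor cells, and GATA1 takes its place on many genes as red cells mature, a change known as the GATA switch. In erythroid cells GATA1 joins a complex in which TAL1, paired with an E protein such as TCF3, binds a neighbouring E-box, LMO2 bridges TAL1 and GATA1, and LDB1 links such complexes to each other and so brings distant enhancers to promoters. ZFPM1 (FOG1) binds the amino-terminal finger of GATA1 and recruits corepressors, LYL1 is the closest relative of TAL1, and NFE2 pairs with small MAF proteins at globin and other erythroid enhancers.

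Each table gives 1 mean level per gene in log2 CPM (CPM are counts scaled to library size), computed by the authors over 4 libraries: 2 control and 2 short-term samples in the short-term table, and the same 2 controls and 2 long-term samples in the long-term table. No value per sample was analysed here, so no level has an SD and no group can be tested against another. The authors' own fold changes and p-values were not used. By their lowest levels the tables appear to average differently. The short-term column behaves as a geometric mean (80.9% of the 3100 genes with a level under -2.5 lay within 0.001 of a level predicted for 9 or fewer reads, whereas 12.9% of that range lies so close), and the long-term column as an arithmetic mean (70.0% of 4870 genes with an estimated 1 to 19 reads came within 0.1 of a whole read). No baseline share was computed for the long-term column, and neither column was checked against the other form of averaging, so both forms are inferred. On this reading, which is used below, a gene that is uneven across libraries is listed lower in the short-term table. The levels also include a small added count (the prior count), assumed to be 0.25 in the short-term table and 2 in the long-term table. With these, a gene without reads stands at -4.11 on the log2 scale in the short-term table and at -0.86 in the long-term table. Genes of few reads are therefore listed higher in the long-term table. The library sizes inferred from the lowest levels ranged from 3372640 to 5270050 reads in the short-term table and averaged 3634190 reads in the long-term table. The short-term sizes were solved from the 4 lowest shared levels, so the 80.9% includes genes that match a predicted level by construction. The libraries read the poly(A) end of each transcript, which gives about 1 read per transcript whatever its length, so CPM values can be set side by side between genes, as far as the annotated gene end is right.

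The erythroid core complex was well expressed in both sets of proerythroblasts. Of the 9 members, 8 reached 10 CPM in each table, whereas 46.0% of all genes with a level did in the short-term table and 45.2% in the long-term table. The exception in both was GATA2. The median member stood at percentile 92.1 of all genes in the short-term table and 93.0 in the long-term table, and 5 members were in the top 10% in each: LMO2, TCF3, NFE2, LDB1 and GATA1. LDB1 and GATA1 left the top 10%, and 3 members stayed, when genes listed under 0 or under 2 on the log2 scale were left out of the background in the short-term table, and under 2 in the long-term table. The lower limit of the top 10% was 119.9 CPM in the short-term table and 112.5 CPM in the long-term table, and the median gene had 7.19 and 7.03 CPM.

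**Figure D1:**
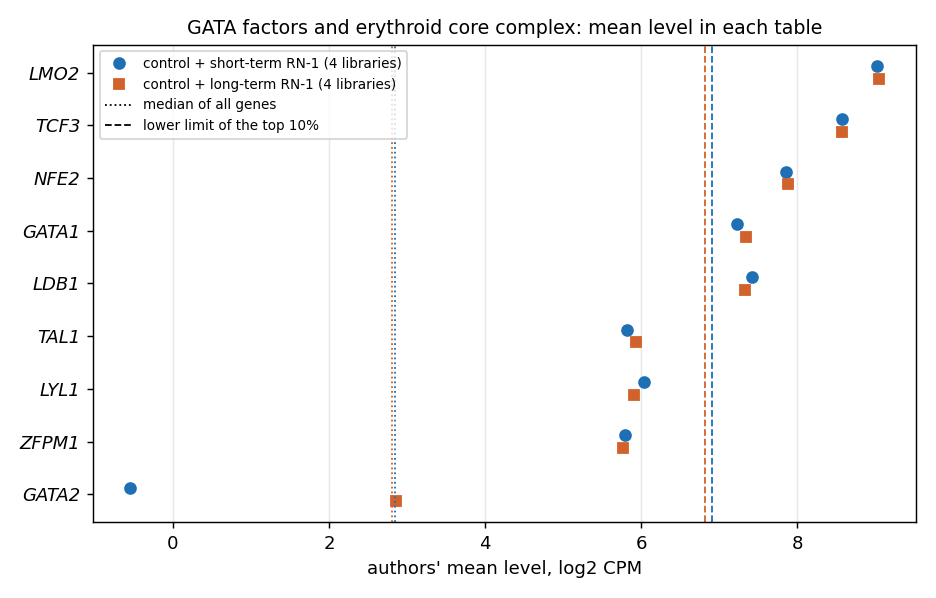
Mean level of each member in log2 CPM in the short-term table (circles, 4 libraries) and the long-term table (squares, 4 libraries), with the median of all genes and the lower limit of the top 10% drawn for each table. Of the 9 members, 8 have nearly the same level in both tables, and GATA2 is listed at -0.54 in one and at 2.87 in the other.

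GATA1, the master regulator of the erythroid program, had a mean level of 149.8 CPM in the short-term table and 162.7 CPM in the long-term table (7.23 and 7.35 on the log2 scale). These levels placed it at percentiles 92.1 and 93.1 of all genes. ZFPM1, its cofactor, was listed at 55.4 and 54.3 CPM, at percentiles 79.7 and 80.5. The level of GATA1 was 2.70 times that of ZFPM1 in the short-term table and 3.00 times in the long-term table.

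GATA2 was the lowest of the 9 members in both tables. Its mean level was 0.686 CPM in the short-term table (-0.54 on the log2 scale, percentile 31.9) and 7.29 CPM in the long-term table (2.87 on the log2 scale, percentile 50.5). By these listed levels GATA1 exceeded GATA2 by 218 times in the first and by 22.3 times in the second. The first ratio is built from geometric means and the second from arithmetic means, so they are unlike measures. If GATA2 was uneven across libraries, its geometric mean is listed lower and the first ratio is larger for that reason. The gap between the ratios is therefore not a measured change in abundance. In the long-term table the GATA2 level corresponds to an estimated 97.9 reads over the 4 libraries (exact Poisson 95% interval 79.5 to 119.4, for counting error only). In the short-term table it corresponds to 10.8 reads over 4 libraries if they were spread evenly, and to more if they were not, since a geometric mean does not fix the sum. How the GATA2 reads were divided between control and treated samples cannot be read from a pooled level.

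The difference between the tables for GATA2 was 3.41 on the log2 scale (long-term minus short-term). Among genes in both tables, 4.54% (742 of 16341) had a difference at least as large. Genes of low level differ between the tables in general: of 1672 genes within 0.5 of GATA2 in the long-term table the median difference was 0.56, and 69 of them had a larger difference than GATA2. Genes near the levels of no reads (-4.11 and -0.86) are listed higher in the long-term table through its larger prior count, and the 4.54% includes such genes. The part of the prior counts in these backgrounds was not tested. The controls are the same in both tables, but the tables were normalised separately and average differently, so this difference is a description and not a test of long-term against short-term RN-1. In sorted cell samples such as these, more cells that carry GATA2 RNA and more RNA per cell cannot be told apart.

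**Figure D2:**
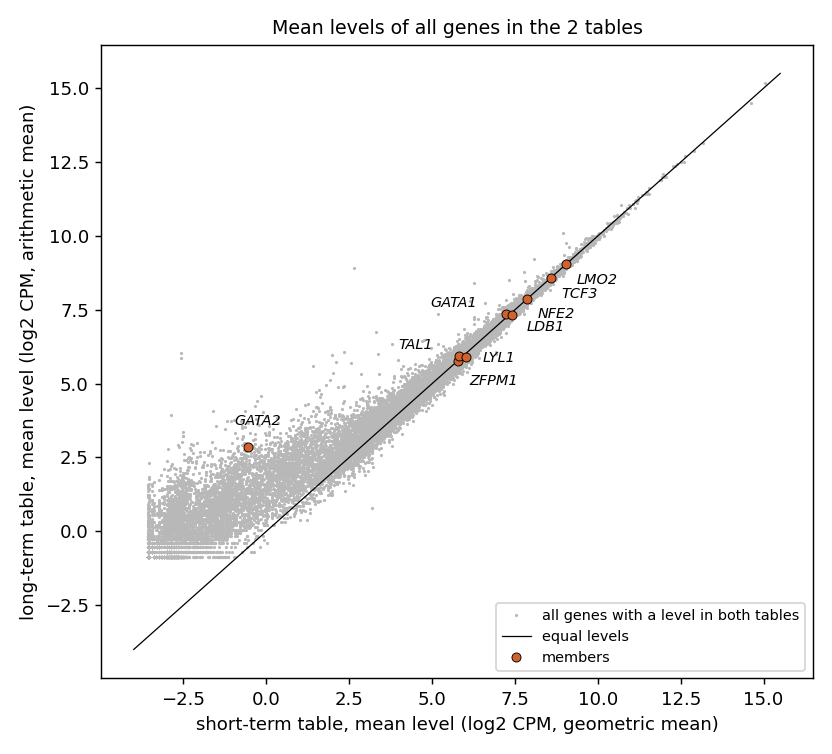
Mean level of each gene in the short-term table (horizontal axis, log2 CPM, geometric mean of 4 libraries) against the long-term table (vertical axis, log2 CPM, arithmetic mean of 4 libraries), with the line of equal levels. Of the members (orange), 8 lie close to the line and GATA2 lies 3.41 above it, in the range of low levels where most genes are above the line.

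Of the markers of mast cells and basophils, cells that also use GATA2, a pair of low-level genes was listed higher in the long-term table, as were many other low-level genes. Of the 5 markers in that list 4 were found by name and 2 had a level in each table, and their summed level, after taking off the added prior count, was 0.538 CPM in the short-term table and 21.6 CPM in the long-term table. ENPP3, a surface enzyme of basophils and mast cells, was at 0.477 and 13.3 CPM. HDC, the histidine decarboxylase, named here after its values were seen, was at 0.177 and 9.42 CPM. Their differences were 4.80 and 5.74 on the log2 scale, where 40.5% of all genes in both tables differed by over 1 and the 95th percentile was 3.37. That background includes genes near the levels of no reads, which are unlike in the tables. The summed markers of granulocytes and monocytes (0.194 and 2.23 CPM) and of megakaryocytes (0 and 2.49 CPM) were also higher in the long-term table. The megakaryocyte sum is 0 in the short-term table because none of its genes had a level there, and such genes were taken to have no reads in those libraries. The other sums add geometric means in the short-term table and arithmetic means in the long-term table, so they are unlike measures. The mast cell protease CPA3 and the IgE receptor subunit MS4A2 had no level in either table. The part of these cells in the GATA2 level was not tested.

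The genes of the GATA2 stage did not share 1 level. Of 10 such genes 6 had a level in both tables, and 2 reached 10 CPM in the short-term table and 3 did so in the long-term table. KIT, the stem cell factor receptor by which the cells were sorted, was at 228 and 220.5 CPM, and MYB, a transcription factor of proliferating progenitors, was at 245 and 260.2 CPM. HHEX, a homeobox factor, was at 2.48 and 11.2 CPM. CD34, against which the cells were sorted, had no level in either table. The other 3 genes with a level in both tables, HDC, IKZF2 and SPRY1, stayed under 10 CPM. The median difference of the 6 genes was 1.96 on the log2 scale and 4 of them differed by over 1, against a median of 0.45 and 40.5% of all genes in both tables. These 4 were HDC, HHEX, IKZF2 and SPRY1, all listed at 2.48 CPM or less in the short-term table. The background was not matched by level, and the tables average differently, so this does not show that genes of the GATA2 stage differed more than others of low level. HDC is also one of the mast cell markers above.

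LMO2, the bridging LIM protein, was the most abundant of the 9 members, at 522 CPM in the short-term table and 529 CPM in the long-term table. It ranked 277 and 274 among all genes by level. LDB1, which binds the LIM domains of LMO2, was listed at 171 and 160.5 CPM, so that LMO2 exceeded its partner by 3.04 times and 3.30 times. TAL1, the DNA-binding subunit, was lower still at 56.5 and 61.1 CPM, at percentiles 79.9 and 82.1. The LMO2 level was 9.24 and 8.67 times the TAL1 level.

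TCF3, the E protein that encodes E12 and E47 and pairs with TAL1, was the second most abundant member. Its level was 381.8 CPM in the short-term table and 382.1 CPM in the long-term table, a difference of 0.001 on the log2 scale. TCF3 exceeded TAL1 by 6.76 times and 6.26 times. LYL1, which can replace TAL1 in such complexes, was listed at 65.4 and 60.1 CPM. LYL1 was 1.16 times as abundant as TAL1 in the short-term table and 0.984 times in the long-term table, so the order of these relatives was not the same in the 2 tables.

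NFE2, the erythroid subunit of the NF-E2 factor, was at 231 CPM in the short-term table and 235 CPM in the long-term table, at percentiles 95.1 and 95.6. It was 1.54 times as abundant as GATA1 in the first and 1.45 times in the second.

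The order of the members by level was LMO2, TCF3, NFE2, then GATA1 with LDB1, then TAL1, LYL1 and ZFPM1, and last GATA2. Neighbours in this order were not all separated. In the long-term table GATA1 had an estimated 2357 reads over the 4 libraries (exact Poisson 95% interval 2263 to 2454) and LDB1 2325 (2231 to 2421), and LDB1 was listed above GATA1 in the short-term table. TAL1 had an estimated 880 reads (822 to 940) and LYL1 865 (809 to 925). ZFPM1 had 781 (727 to 838), an interval that overlaps those of both. LMO2, with an estimated 7685 reads, TCF3, with 5546, and NFE2, with 3411, had intervals that did not overlap with any other member. These intervals cover counting error only and leave out the spread between animals, which is unknown here.

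The 8 members other than GATA2 kept nearly the same level across the tables. Their differences (long-term minus short-term) ran from -0.12 for LYL1 to 0.12 for GATA1 on the log2 scale, and all 8 were within 0.15 of 0. Among genes at or above 10 CPM in the long-term table (8101 genes), 48.2% were as close, with a median of 0.08 and a 5th to 95th percentile range of -0.25 to 0.88. Because 2 of the 4 libraries behind each level are the same controls, a difference between long-term and short-term samples appears here in diluted form. A change that both treatments share leaves little or no difference between the tables. These values therefore do not show whether RN-1 changed the 8 members.

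Among the GATA and FOG relatives no gene reached 10 CPM in either table. Of 6 such genes 3 had a level. GATA3, a regulator of T cells, was the highest, at 1.85 CPM in the short-term table and 4.05 CPM in the long-term table, and GATA5, GATA6 and ZFPM2 had no level. With the prior count taken off, GATA1 made up 98.2% of the summed level of the GATA family in the short-term table and 93.6% in the long-term table. GATA2 made up 0.412% and 3.89%, and GATA3 1.17% and 2.02%, so that GATA3 was listed above GATA2 in the short-term table and below it in the long-term table. The short-term shares are built from geometric means, which list a gene that is uneven across libraries lower. Shares and order are therefore not strictly comparable between the tables, and the part of the averaging in them was not tested.

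**Figure D3:**
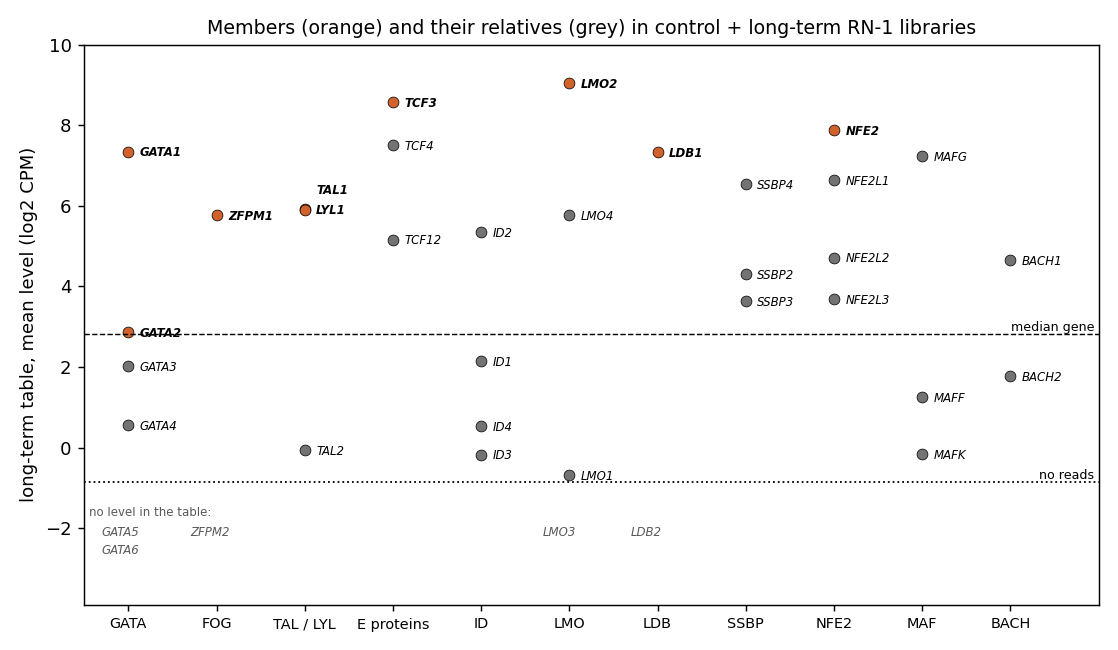
Mean level in log2 CPM in the long-term table (2 control and 2 long-term libraries) of each member (orange) and its relatives and partners (grey), by family, with the level of a gene without reads and the median gene as lines and genes without a level named at the bottom. In the GATA, E protein, LMO and NFE2 families the highest gene is a member, at 7.35, 8.58, 9.05 and 7.88.

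Apart from GATA2, each member was the most abundant gene of its family or, for TAL1 and LYL1, shared that place. LMO2 made up 91.7% of the summed LMO level in the short-term table and 90.7% in the long-term table. LMO4, a widely expressed LIM-only protein, made up the rest almost entirely, at 47.0 and 54.5 CPM, whereas LMO1 had an estimated 1 read over the 4 libraries in the long-term table and LMO3 had no level. LDB2, the relative of LDB1, had no level in either table. Of the SSBP proteins, which protect LDB1 from degradation, SSBP4 was at 113 and 92.5 CPM, SSBP2 at 13.8 and 19.8 CPM and SSBP3 at 9.06 and 12.5 CPM. RLIM, the ubiquitin ligase that targets LDB1, was at 42.7 and 51.1 CPM.

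The E proteins were shared among 3 genes. TCF3 made up 67.0% of their summed level in the short-term table and 63.8% in the long-term table. TCF4 made up 28.6% and 30.3%, at 163 and 182 CPM, and TCF12 (HEB) 4.41% and 5.90%, at 25.2 and 35.9 CPM. TAL2, the other close relative of TAL1, had a level in the long-term table alone, with an estimated 5.98 reads. The ID proteins bind E proteins and keep them from DNA. Of these only ID2 reached 10 CPM, in the long-term table, where it was at 40.7 CPM against 4.07 CPM in the short-term table. Its difference between the tables was 3.32 on the log2 scale, beside 3.41 for GATA2. Both differences set a geometric mean against an arithmetic mean, so neither is a measured change in abundance, and they do not show a shared one.

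NFE2 made up 63.3% of the summed level of its family in the short-term table and 63.0% in the long-term table. NFE2L1, a broadly expressed relative, was at 97.8 and 100.2 CPM, NFE2L2 (NRF2), the regulator of the antioxidant response, at 25.2 and 26.3 CPM, and NFE2L3 at 11.0 and 12.9 CPM. Of the small MAF partners of NFE2, MAFG was by far the most abundant at 137 and 152 CPM, whereas MAFK was at 0.159 and 0.893 CPM and MAFF at 0.505 and 2.39 CPM. BACH1, a heme-regulated repressor that competes for the same MAF partners and sites, was at 15.9 and 25.1 CPM.

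**Figure D4:**
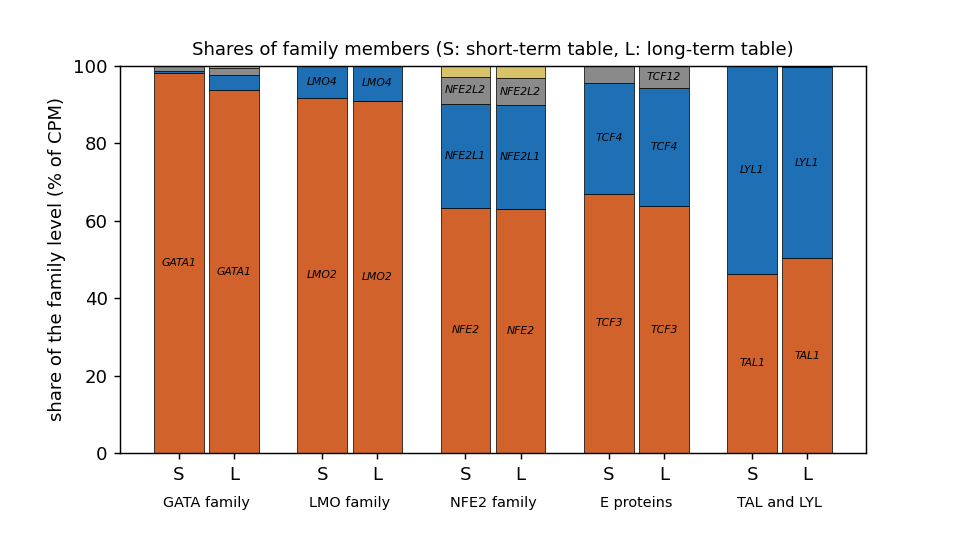
Share of the summed family level (percent of CPM, prior count taken off) held by each gene in the short-term table (S) and the long-term table (L), stacked by gene, for genes with a level. GATA1 and LMO2 hold over 90% of their families in both tables, and the blue band of GATA2 is 0.412% in S and 3.89% in L, with GATA3 in grey above it. Shares in S are built from geometric means and shares in L from arithmetic means, so they are not strictly comparable.

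Of 16 partner and cofactor proteins of the complex 12 had a level in the short-term table and 14 in the long-term table, and 9 and 10 reached 10 CPM. KLF1, the erythroid factor that acts beside GATA1 at many promoters, was at 783 and 826 CPM. CHD4, the NuRD remodeller that ZFPM1 recruits, was at 535 and 572 CPM. The LSD1 partners of the complex were GFI1B at 179 and 233 CPM, KDM1A itself at 113 and 118 CPM and RCOR1 at 82.7 and 80.0 CPM. RUNX1 was at 22.9 and 25.5 CPM, and the ETO family corepressor RUNX1T1 at 14.5 and 36.5 CPM. CBFA2T3 (ETO2), the family member known to bind TAL1 complexes in erythroid cells, was named here after its values were seen. It had no level in the short-term table, and its long-term level corresponds to 6.13 reads over 4 libraries. Whether the annotated end of CBFA2T3 is right was not checked, so these levels do not show that its RNA was absent. The myeloid factor SPI1 and the stem cell factor ERG had no level in either table.

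Known targets of GATA1 stood high in both tables. Of 12 such genes 11 reached 10 CPM in the short-term table and 12 in the long-term table, with median levels of 8.37 and 8.40 on the log2 scale. The anion exchanger SLC4A1 was at 2261 and 2326 CPM, the heme synthesis enzyme ALAS2 at 1421 and 1425 CPM, HEMGN, a nuclear protein of erythroid cells, at 1318 and 1363 CPM and the transferrin receptor TFRC at 1272 and 1290.0 CPM. The erythropoietin receptor EPOR was at 116 and 115 CPM. The survival factor BCL2L1 was the lowest of the 12, at 2.24 and 10.9 CPM. The median difference of the 12 targets between the tables was 0.03 on the log2 scale, beside 0.08 for all genes at or above 10 CPM in the long-term table. Of the 12, 1 differed by over 1, namely BCL2L1 at 2.28. As for the members, a change that both treatments share leaves little or no difference between the tables. These values therefore do not show whether RN-1 changed the targets.

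The cells carried the markers of the sort. All 9 erythroid markers reached 10 CPM in both tables, and ENG, which encodes CD105, was at 102 and 97.7 CPM. Of the markers of other cells, with the prior count taken off, the summed level was 8.74 and 13.2 CPM for the 5 stem and early progenitor genes, 0 and 2.49 CPM for 4 megakaryocyte genes (PF4, the other gene of that list, was not found by name), 0.194 and 2.23 CPM for the 6 granulocyte and monocyte genes and 0.0604 and 0 CPM for the 5 lymphoid genes. MPO, ELANE and LYZ had no level in either table.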

How the data were processed

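RNA of sorted proerythroblasts was sequenced by the authors from the poly(A) end with a strand-specific kit, aligned to Panu_2.0 with BWA MEM, counted with featureCounts and compared with edgeR (the sources used here give no versions). The 2 deposited tables hold, per gene, a mean level in log2 CPM over 4 libraries, which was used, and the authors' fold changes, p-values, q-values, up or down marks and, for the short-term comparison, pathway terms, which were not used. No value per sample was analysed, so no test was run, and groups were taken from the sample labels.

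A level was given for 16355 (short-term) and 17942 (long-term) of 39023 rows. Names turned into dates (24 a table) and rows with a repeated name (2 a table) were left out, which left 16341 and 17923 genes. Percentiles are over these. Library sizes were solved from the 4 lowest shared levels (short-term, prior count 0.25) and from the level of 901 genes without reads (long-term, prior count 2). These prior counts are assumed. The solving step was tested on simulated data made with the same formulas and prior counts, which does not test those assumptions. A gene with a level in the long-term table alone was taken to have no reads in the control and short-term libraries. All 1582 such genes lay above the level of no reads.

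The members and the 13 lists (91 genes, 89 found, 2 of them through RefSeq names of Panubis1.0) were chosen with earlier results of these data known. All members were named, and list genes at or above 10 CPM in either table. Other list genes named, such as low ones or those without a level, were chosen after their values were seen. Some list genes are not reported here. Alternatives were thresholds of 5 and 20 CPM, the prior count taken off, other backgrounds for the top 10%, and for the difference between the tables centring on its median or a limit of 0.5. Python 3.11.15, numpy 2.4.6, pandas 2.3.3 and scipy 1.17.1 were used.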

Additional observations from a re-analysis of the deposited data

How the results depend on the processing

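Of 15 alternatives to the counts of members, 11 gave the same count. The number of members in the top 10%, 5 in each table, fell to 3 in the short-term table when only genes listed at 0 or more, or at 2 or more, on the log2 scale formed the background, and to 3 in the long-term table for genes at 2 or more, because these backgrounds leave out low genes. These 3 were LMO2, TCF3 and NFE2 each time. At a threshold of 5 CPM, 9 members passed in the long-term table, GATA2 included. The difference of GATA2 between the tables was 3.42 on the log2 scale with the prior count taken off and 2.96 when centred on the median of 0.45, and no other member passed a limit of 1 or of 0.5 as deposited. Neither alternative removes the unlike averaging of the tables, so they do not test its part in the GATA2 difference. No paired analysis was possible because the tables hold 1 pooled level per gene and no column per sample. For the same reason no library could be left out. Levels under about 1 CPM rest on a few reads.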
